A study of Homo sapiens with 42 samples.

Results

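The THBS1 locus was followed as 14 of the 33914 chromatin loops in the deposited table, namely all loops on chromosome 15 with an anchor that starts between 39000000 and 40000000 (hg38). Of these, 10 have both anchors in the window. The study measured contacts by in situ Hi-C in K562, an established human leukemia line with the wild-type genotype label, after 0 h, after 6 h or after 72 h in 25 nM PMA, a phorbol ester that activates protein kinase C and was used here to induce megakaryocyte differentiation, with medium changes on the way to the last time. Each time has 4 biological replicates, all from this 1 line, and 0 h is the control. In situ Hi-C ligates neighbouring fragments of fixed chromatin, so each count is a contact between the 2 anchors of a loop, each 10 kb wide. The labels do not say whether replicates came from separate cultures, so p-values measure only the spread between these samples. Contact counts hold no RNA level, so neither the expression of THBS1 nor the cell type was checked here. A bulk count also cannot tell a loop present in more cells from more contacts in each cell.

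THBS1 encodes thrombospondin-1, a secreted matrix glycoprotein that platelets store in alpha granules and release on activation. It binds cell surface receptors such as CD36 and CD47 and can activate latent TGF-beta. Megakaryocytes, the precursors of platelets, make it. Loops are held by cohesin, which reels in DNA until it is stopped, often at CTCF sites, and a loop can bring a distant regulatory region next to a promoter. The window holds 4 other protein-coding genes. LOC124903470 is a predicted gene just before THBS1, FSIP1 encodes a protein linked to the sperm fibrous sheath, GPR176 an orphan G protein-coupled receptor, and EIF2AK4 the kinase GCN2 that senses amino acid shortage.

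THBS1 lies on the plus strand at 39581079 to 39599466 and FSIP1 on the minus strand at 39597440 to 39782841, so that their 3′ ends overlap. The listed starts of 3 protein-coding genes sit inside anchors of loops that changed: that of THBS1 in loop27668, and those of FSIP1 and GPR176 at the opposite ends of loop27672. LOC124903470 has no listed start site, but both its ends lie in anchors of loops that changed. The anchors of loop27664, loop27669 and loop27670, the 3 largest rises, hold none of these listed starts. The 250 bases before each of the 3 listed starts are shown. They come from RefSeq (GRCh38.p14), at chr15:39580829-39581078 on the plus strand for THBS1, chr15:39782842-39783091 on the minus strand for FSIP1 and chr15:39920267-39920516 on the minus strand for GPR176. Capitals mark matches to 6 short motifs on either strand.
THBS1: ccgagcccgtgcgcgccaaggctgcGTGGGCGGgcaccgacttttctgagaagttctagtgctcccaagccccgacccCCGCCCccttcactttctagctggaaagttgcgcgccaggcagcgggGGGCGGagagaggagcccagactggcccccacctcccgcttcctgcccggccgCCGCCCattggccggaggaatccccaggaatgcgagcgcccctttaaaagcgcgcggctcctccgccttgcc
FSIP1: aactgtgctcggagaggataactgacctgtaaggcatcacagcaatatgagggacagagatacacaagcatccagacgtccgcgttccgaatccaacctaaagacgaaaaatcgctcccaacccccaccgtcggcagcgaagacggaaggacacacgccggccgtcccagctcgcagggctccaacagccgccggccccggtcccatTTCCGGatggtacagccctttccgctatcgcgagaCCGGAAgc
GPR176: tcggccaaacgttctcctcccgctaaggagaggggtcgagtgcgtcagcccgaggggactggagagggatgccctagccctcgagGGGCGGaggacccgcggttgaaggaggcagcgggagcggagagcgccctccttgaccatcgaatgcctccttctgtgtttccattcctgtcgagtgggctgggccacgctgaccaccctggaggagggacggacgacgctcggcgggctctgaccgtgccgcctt
The THBS1 stretch held 4 GC boxes (GGGCGG), and at least 1 was found in 42.6% of 35116 promoter stretches of this length. It also held 1 EGR core (GTGGGCG, 8.53%) that overlaps the GC box farthest from the start. FSIP1 held 2 ETS cores (CCGGAA, 14.5%), and GPR176 held 1 GC box. None of the 3 stretches held the AP-1 letters TGANTCA (6.57% of stretches), the E-box CACGTG (6.34%) or the GATA letters AGATAA (9.17%), which says only that these letters are not in these windows.

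Values are normalized contacts, that is, contacts per 1000000 that each library holds in the tested loops after TMM scaling. Libraries held between 736929 and 1472197 contacts over all loops, and the raw count of the 14 loops ranged from 3 to 125 per library. All 14 passed the filter on low counts. The last 2 replicates at 72 h (3 and 4) could not be told apart beyond sampling noise (chi-square over degrees of freedom 1.003, p 0.367), unlike the other pairs of that time (p at most 7.16e-10). The same pair was also the closest at 0 h (1.018, p 0.0253) and at 6 h (1.023, p 0.00621), where it did differ. In each mean ± SD the 72 h pair counts as 1 sample, so n is 3 at 72 h and 4 at the earlier times, while the edgeR fits keep all 12 libraries. With the pair summed into 1 library, 2, 8 and 5 members were called at 6 h, at 72 h and between these times, as in the fit of 12 libraries. A loop is said to have risen or fallen where its adjusted p (edgeR quasi-likelihood test, Benjamini-Hochberg over all 24132 tested loops) was under 0.05, and changes are log2 fold changes with their standard error (SE).

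**Figure D1:**
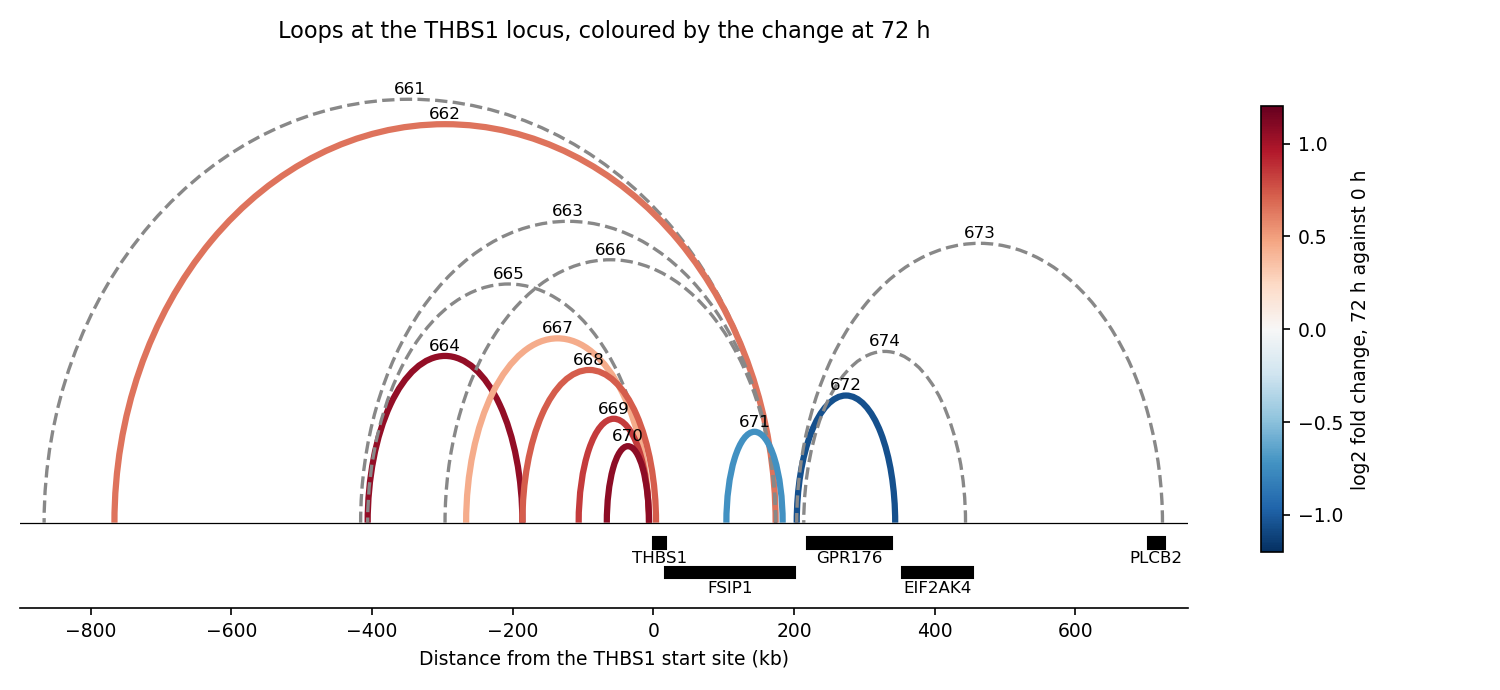
Loops of the locus drawn as arcs between anchor centres, by distance from the THBS1 start site in kb; each arc is labelled with the last 3 digits of its loop number, and arc height has no unit. Solid arcs passed the test at 72 h against 0 h and are coloured by their log2 fold change, dashed grey arcs did not; the 5 solid arcs that end upstream of or at THBS1 are red (0.45 to 1.075), as is the long arc of loop27662 (0.65), and the 2 solid arcs of loop27671 and loop27672 are blue (-0.72 and -1.05).

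At 72 h, 8 of the 14 loops had changed, where 33.6% of all tested loops had. Of these, 6 had risen, 5 of them ending upstream of or at THBS1, and 2 had fallen, 1 inside FSIP1 and 1 between the starts of FSIP1 and GPR176. Over all tested loops 16.7% rose and 16.9% fell, and for loops at 60 to 220 kb outside the window, the lengths of the 4 largest rises, these shares were 15.3% and 27.0%. The median change of the 14 loops was 0.38, against 0.01 over all tested loops and -0.01 over 757 tested loops elsewhere on chromosome 15. In 7 of the 14 loops every 72 h library lay on the same side of all 0 h libraries (28.3% of all tested loops): 5 were higher (14.2%) and 2 lower (14.1%).

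**Figure D2:**
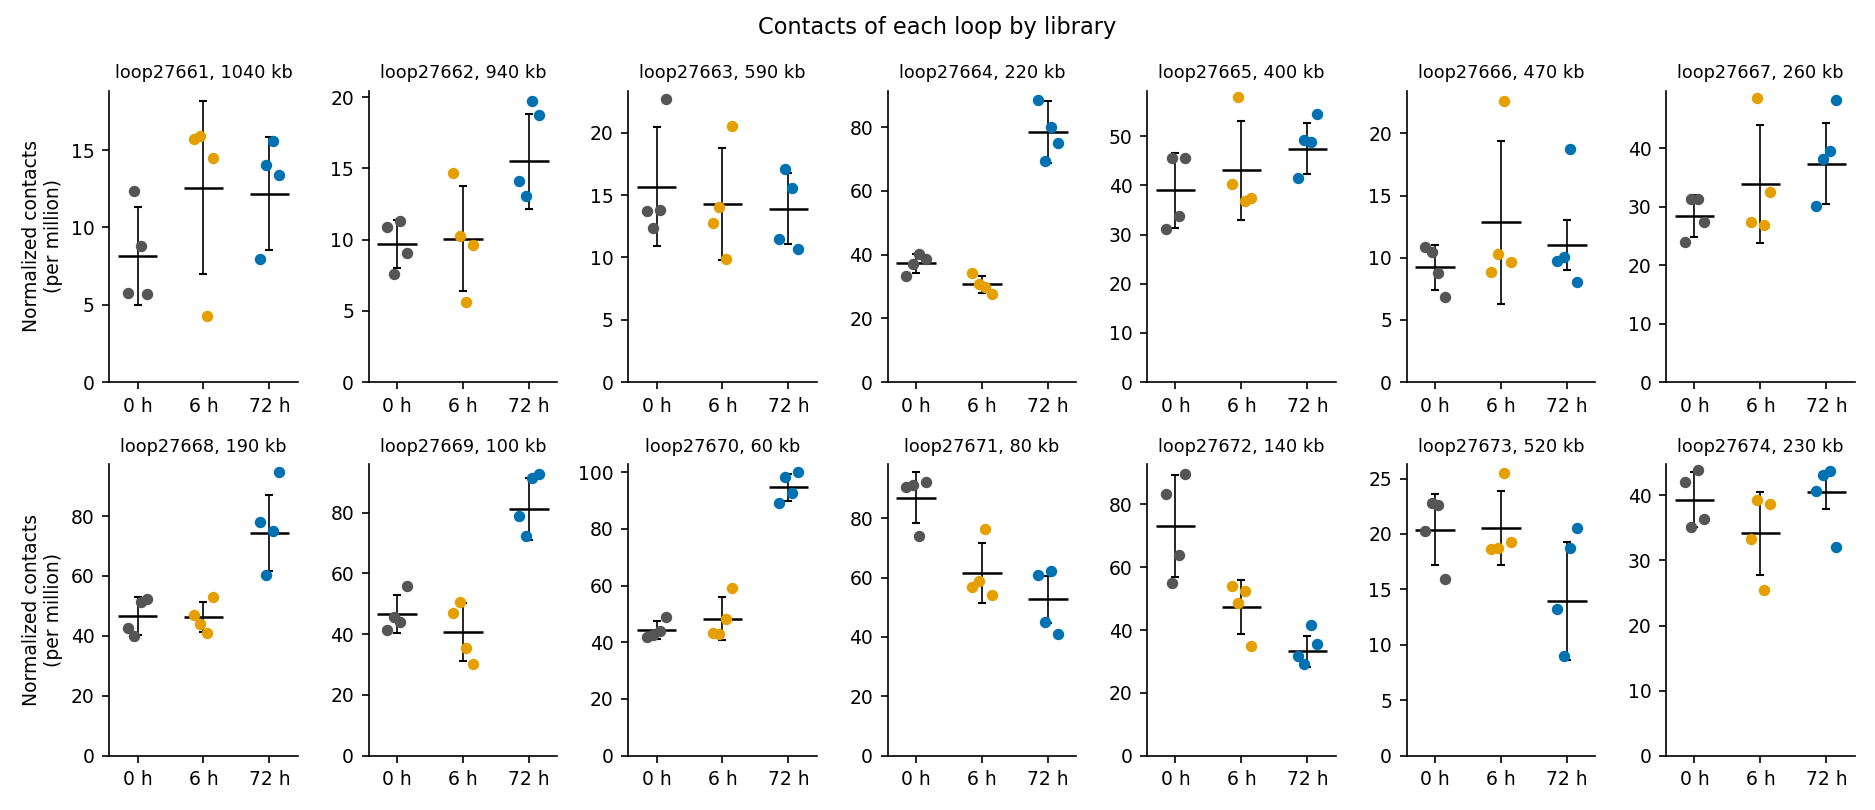
Normalized contacts (per 1000000 in tested loops, linear axes from 0) of each of the 14 loops, with 1 point per library, at 0 h (grey), 6 h (orange) and 72 h (blue); black lines are means and bars SD, with the 72 h replicates 3 and 4 counted as 1 sample. In loop27664, loop27668, loop27669 and loop27670 all 72 h points lie above all 0 h and 6 h points, and in loop27671 and loop27672 all 72 h points lie below the 0 h points.

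The loop that reaches the THBS1 start, loop27668, joins the anchor at 39390001 to 39400000, 190 kb upstream, to the anchor at 39580001 to 39590000, which holds the THBS1 start and the 5′ part of the gene. Its normalized contacts at 0 h were 42.7, 39.9, 51.4 and 52.3 in replicates 1 to 4. At 6 h they were 47.1, 43.9, 41.0 and 53.1, and at 72 h 77.9, 60.2, 74.9 and 94.6. The 72 h libraries all lay above those of both earlier times, which overlapped each other. Its mean before PMA was 46.6 ± 6.2 (SD, n = 4). After 6 h it was 46.3 ± 5.2 (SD, n = 4), and after 72 h it was 74.3 ± 13 (SD, n = 3). This gave a change of 0.73 (SE 0.14, edgeR adjusted p 6.24e-06) at 72 h and of 0.02 (SE 0.15, adjusted p 0.972) at 6 h. From 6 h to 72 h the loop rose by 0.72 (SE 0.14, adjusted p 4.85e-05), and 7.12% of all tested loops had a larger rise from 0 h to 72 h.

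The distal anchor of loop27668 is also an end of loop27664, which runs 220 kb further upstream to 39170001 to 39180000, so that both meet at 39390001. Neither end holds a protein-coding gene, and both lie over the long noncoding transcript LOC105370777. The far anchor also holds the listed start of LOC105370780 and lies over LOC124900600, transcripts that are not protein-coding either. Normalized contacts were 33.3, 37.0, 40.1 and 38.7 at 0 h, 34.3, 30.8, 29.7 and 27.8 at 6 h and 88.5, 69.3, 80.1 and 74.98 at 72 h. Every 72 h library was above every earlier one. The loop rose by 1.05 (SE 0.14, edgeR adjusted p 3.13e-10) over 72 h and by 1.29 (SE 0.15, adjusted p 3.57e-12) from 6 h to 72 h, and the 6 h value of -0.24 (SE 0.17) did not pass the test. For the 6 h to 72 h interval only 0.153% of tested loops had a larger rise.

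The anchor at 39570001 to 39580000 is shared by 4 loops; it ends 1079 bases before the THBS1 start and holds an end of LOC124903470. The shortest, loop27670, reaches 60 kb upstream to the lncRNA LOC105370784 at 39510001 to 39520000. It had 42.0, 42.7, 43.9 and 48.9 normalized contacts at 0 h, 43.1, 43.0, 48.1 and 59.1 at 6 h, and 89.4, 98.4, 92.6 and 99.98 at 72 h. The 72 h libraries stood apart from all others, and the loop rose by 1.075 (SE 0.13, edgeR adjusted p 8.21e-12), a 2.11-fold change. A larger rise was fitted for 1.49% of tested loops. Next in length, loop27669 reaches 100 kb to 39470001 to 39480000, where the lncRNA LOC105370783 starts. Its normalized contacts were 41.3, 45.6, 43.9 and 55.7 at 0 h, 47.1, 50.5, 35.4 and 30.2 at 6 h and 78.7, 72.3, 91.5 and 92.8 at 72 h. The 72 h libraries again lay above the rest, while replicates 3 and 4 were the lowest at 6 h, and the loop rose by 0.84 (SE 0.13, edgeR adjusted p 1.54e-07).

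The 2 longer loops of the same anchor had smaller values. For loop27667, 260 kb long with its far end at 39310001 to 39320000, the mean went from 28.5 ± 3.6 before PMA (SD, n = 4) through 33.9 ± 10 after 6 h (n = 4) to 37.4 ± 6.9 after 72 h (n = 3). Its libraries overlapped between 0 h (23.9 to 31.4) and 72 h (30.1 to 48.2). The rise of 0.45 (SE 0.17, edgeR adjusted p 0.0337) missed the threshold when 1 library was left out: replicate 1 (adjusted p 0.177) or 4 (0.0693) of 0 h, or replicate 2 (0.0519), 3 (0.056) or 4 (0.186) of 72 h. With DESeq2 it missed it too (0.148). For loop27665, 400 kb long and ending at 39170001 like loop27664, the mean was 39.0 ± 7.6 before PMA, 43.1 ± 10 after 6 h and 47.5 ± 5.3 after 72 h, with a change of 0.32 (SE 0.15) that did not pass (edgeR adjusted p 0.0992). It passed with the filter at a mean count of 20 (0.38, adjusted p 0.0424), and without replicate 1 of 0 h it was 0.18 (adjusted p 0.442). Along this anchor the log2 change at 72 h was 1.075 at 60 kb, 0.84 at 100 kb, 0.45 at 260 kb and 0.32 at 400 kb; whether these values differ from each other was not tested.

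The 4 loops that pass over THBS1 all end at 39750001 to 39760000 inside the FSIP1 gene body and had few contacts, with mean raw counts between 10.9 and 14.3 per library. The only one that passed the test, loop27662 of 940 kb, had 7.60 to 11.3 normalized contacts before PMA, 5.66 to 14.7 after 6 h and 13.1 to 19.8 after 72 h. Its rise of 0.65 (SE 0.25, edgeR adjusted p 0.0353) missed the threshold without replicate 1 (adjusted p 0.0544), 2 (0.105) or 4 (0.0713) of 0 h, and without replicate 3 (0.101) or 4 (0.0987) of 72 h. With the correction for loop length its change was 0.38 (adjusted p 0.255); loops of 590 to 1040 kb elsewhere had a median change of 0.23. The other members of this group had changes at 72 h of 0.54 (SE 0.28) in loop27661 of 1040 kb, 0.23 (SE 0.28) in loop27666 of 470 kb and -0.16 (SE 0.24) in loop27663 of 590 kb. None of the 3 passed the test, but loop27661 did without replicate 2 of 0 h (0.76, edgeR adjusted p 0.0484), and its change without replicate 1 of 0 h was 0.38 (adjusted p 0.372).

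Beyond THBS1, 2 of the 4 loops fell. In loop27672, of 140 kb, the anchor at 39780001 to 39790000 holds the FSIP1 start and that at 39920001 to 39930000 the start of GPR176 with its divergent transcript GPR176-DT. Normalized contacts were 83.3, 55.1, 64.0 and 89.8 at 0 h, 53.9, 48.6, 52.4 and 35.0 at 6 h, and 31.9, 29.1, 41.6 and 35.7 at 72 h. All libraries at 6 h and at 72 h lay below all at 0 h, and 6 h and 72 h overlapped. The loop fell by 0.60 on the log2 scale at 6 h (SE 0.14, edgeR adjusted p 0.00274) and by 1.05 at 72 h (SE 0.15, adjusted p 2e-09), a 2.07-fold drop, and only 0.377% of tested loops had a lower value at 72 h.

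The other loop that fell, loop27671, lies wholly in the FSIP1 gene body, between 39680001 to 39690000 and 39760001 to 39770000, 80 kb apart. It had the most contacts of the locus before treatment, with 90.5, 91.1, 74.0 and 92.1 at 0 h, then 56.9, 58.9, 76.4 and 54.3 at 6 h and 61.0, 45.2, 62.4 and 41.1 at 72 h. The 72 h libraries lay below all 0 h libraries, and 1 library at 6 h overlapped with 0 h. Its log2 change was -0.51 at 6 h (SE 0.13, edgeR adjusted p 0.0063) and -0.72 at 72 h (SE 0.13, adjusted p 2.91e-06). From 6 h to 72 h its value of -0.21 (SE 0.14) did not pass the test (adjusted p 0.305).

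The other 2 loops beyond THBS1 did not pass in the fit of all libraries. In loop27673, of 520 kb, the FSIP1 start anchor meets an anchor at 40300001 to 40310000 with an end of PLCB2, a phospholipase C of blood cells that acts downstream of G proteins. Its change at 72 h was -0.36 (SE 0.22, edgeR adjusted p 0.194), with 15.9 to 22.8 normalized contacts at 0 h and 9.04 to 20.5 at 72 h. Within replicates 1 and 2 it passed, at -0.84 (adjusted p 0.042), and within replicates 3 and 4 the value was 0.040; without replicate 2 of 72 h it was -0.21 (adjusted p 0.512). In loop27674, of 230 kb, the 3′ end of GPR176 meets the EIF2AK4 gene body at 40020001 to 40030000. The mean before PMA was 39.4 ± 4.3 (SD, n = 4) and that after 72 h was 40.6 ± 2.6 (SD, n = 3), a change of 0.01 (SE 0.16, adjusted p 0.966).

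**Figure D3:**
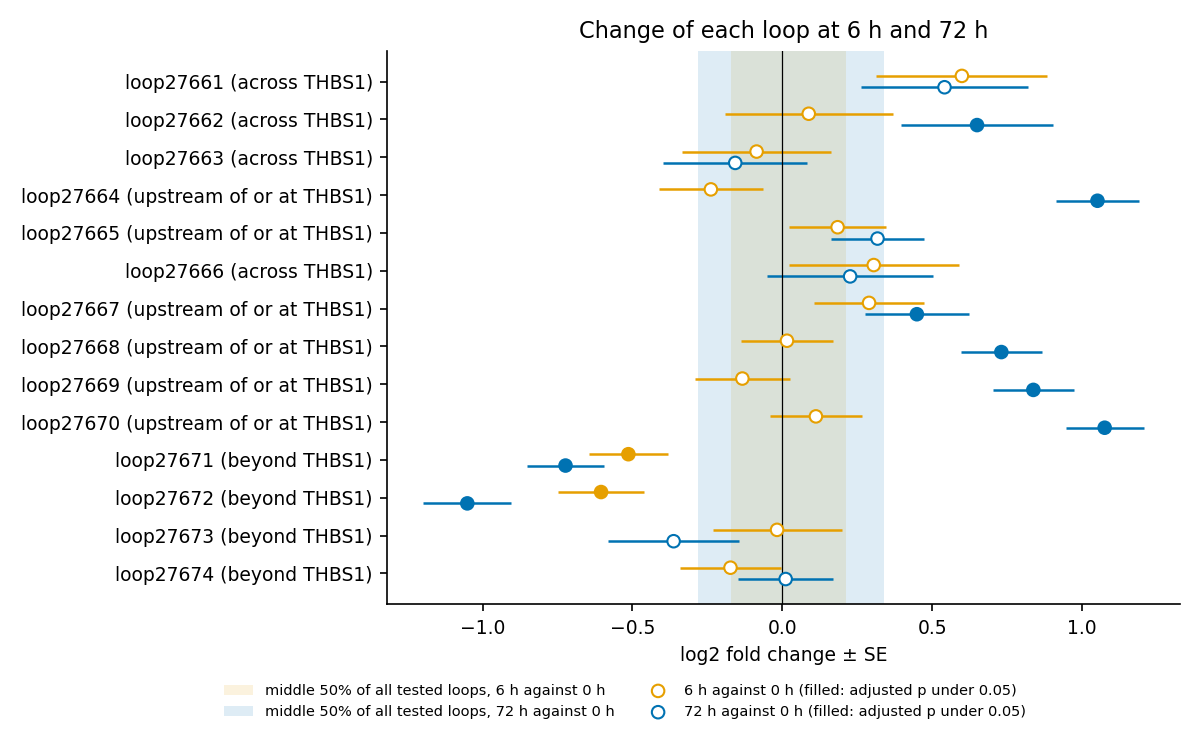
Log2 fold change ± SE of each of the 14 loops at 6 h (orange) and 72 h (blue) against 0 h; filled points had an edgeR adjusted p under 0.05, and shaded bands span the middle 50% of all 24132 tested loops. At 6 h only loop27671 (-0.51) and loop27672 (-0.60) are filled, while at 72 h 6 loops are filled to the right of 0 and these 2 to the left. Both comparisons use the same 0 h libraries.

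Both falls had passed the test by 6 h, and 4 of the 6 rises passed it between 6 h and 72 h; whether the falling and rising loops differ in timing was not tested. At 6 h, 2 of the 14 loops had changed (6.41% of all tested loops), loop27671 and loop27672, and both had fallen (4.07%). Among loops of 60 to 220 kb outside the window, a range that holds the lengths of both, 8.06% fell and 2.03% rose at 6 h. In loop27672 alone no library of 6 h overlapped with 0 h, all lower (5.77% of tested loops, with 4.97% higher and 10.7% in either direction). No member rose at 6 h by edgeR, where 2.34% of all tested loops did, nor did any of the 8 members to which DESeq2 gave an adjusted p; loop27661, higher by edgeR at an unadjusted p under 0.05 (0.60, SE 0.29, adjusted p 0.208), was not among these 8. The 6 h values of the 2 falling loops were 71.0% of the 72 h change in loop27671 and 57.5% in loop27672. Between 6 h and 72 h, 5 of the 14 loops changed (20.5% of all tested loops). Of these, 4 rose (loop27664, loop27668, loop27669 and loop27670), where 10.7% of tested loops did, and 1 fell, where 9.81% did. The libraries of the 4 rising loops did not overlap between these times, all higher at 72 h, against 19.8% of tested loops in either direction, 10.4% higher and 9.43% lower. In that interval loop27672 fell by a further 0.45 on the log2 scale (SE 0.16, edgeR adjusted p 0.0392), a call not reached without replicate 1 (adjusted p 0.145), 2 (0.0747) or 3 (0.0871) of 6 h, or without replicate 1 (0.0994), 2 (0.113) or 4 (0.0559) of 72 h.

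Replicates 1 and 2 differ from 3 and 4 in technical replicates and sequencing runs, so the fit was repeated within each pair. Since replicates 3 and 4 of 72 h count as 1 sample, the fit within them has a single sample in its 72 h arm and is given as values only. Within replicates 1 and 2 the 4 large rises at 72 h passed the test, with changes of 0.71 for loop27668, 1.13 for loop27664, 0.77 for loop27669 and 1.10 for loop27670; the values within replicates 3 and 4 were 0.70, 0.94, 0.85 and 1.02. Both falls at 72 h passed within replicates 1 and 2, at -0.76 for loop27671 and -1.18 for loop27672, with values of -0.69 and -0.97 within replicates 3 and 4. At 6 h, only the fall of loop27671 passed within replicates 1 and 2. Its 6 h change was -0.64 in replicates 1 and 2 (edgeR adjusted p 0.0178), with a value of -0.36 in 3 and 4. For loop27672 the 6 h change was -0.46 in replicates 1 and 2 (adjusted p 0.147), with a value of -0.82 in 3 and 4.

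**Figure D4:**
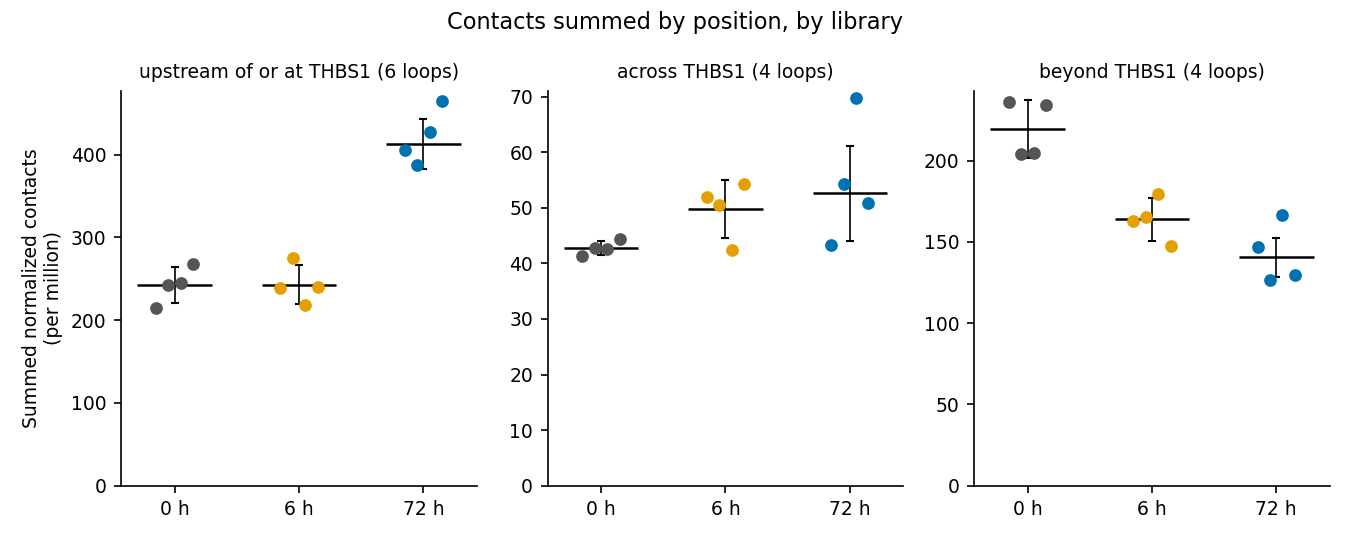
Normalized contacts (per 1000000 in tested loops, linear axes from 0) summed over the loops that end upstream of or at THBS1, pass across it or lie beyond it, with 1 point per library; black lines are means and bars SD, with the 72 h replicates 3 and 4 counted as 1 sample. The upstream sum has means of 242 at 0 h, 243 at 6 h and 413 at 72 h, while the sum beyond THBS1 goes from 220 through 164 to 140.

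Summed by position, the 6 loops upstream of or at THBS1 held 242 ± 22 normalized contacts before PMA (SD, n = 4), 243 ± 24 after 6 h (n = 4) and 413 ± 30 after 72 h (n = 3). The 4 loops beyond THBS1 held 220 ± 18, 164 ± 13 and 140 ± 12, and the 4 loops across it 42.8 ± 1.3, 49.8 ± 5.1 and 52.6 ± 8.6. The upstream sum was 1.11 ± 0.14 times the sum beyond at 0 h (range 0.908 to 1.2), 1.49 ± 0.21 times at 6 h (1.21 to 1.66) and 2.97 ± 0.18 times at 72 h (2.57 to 3.59). This ratio is taken within each library and so does not depend on scaling between libraries. Each range covers all libraries of its time. The SD at 72 h (n = 3) averages replicates 3 and 4 and so leaves out the spread between them. The 3 positions were set with the values known, and no test was made of the sums.

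Loops elsewhere with a pattern most like that of loop27668 were found by the Pearson correlation of log2 normalized contacts over the 12 libraries, so that the points share each library's time and depth. The 5 highest values were between 0.933 and 0.951. The closest, loop22711 on chromosome 11, joins SC5D, a cholesterol synthesis enzyme, to SORL1, a sorting receptor. Others were at TRIO on chromosome 5, at MAP3K7CL and the transcription factor gene BACH1 on chromosome 21, at KIT, the stem cell factor receptor, on chromosome 4 and within ASTN2 on chromosome 9. At KIT, loop8662 had a change of 0.85 (SE 0.18, edgeR adjusted p 6.9e-05) at 72 h and 0.0021 at 6 h.

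Genes of the THBS1 pathway were read from 3 lists, by loops with a gene end in an anchor. In the thrombospondin family, 5 loops at 2 of 4 genes (THBS4 and COMP) were tested and 2 rose at 72 h, both at THBS4, a thrombospondin of muscle and tendon matrix: loop11598 by 1.11 (SE 0.23, edgeR adjusted p 7.12e-05) and loop11595 by 0.95 (SE 0.23, adjusted p 0.000391). These 2 loops, 950 kb and 1060 kb long, share the anchor starting at 80080001 and had few contacts at 0 h (means 9.65 and 11.7). Over all tested loops 16.7% rose, and the family's median was 0.01. Among loops of 590 to 1040 kb outside the window, a range that ends just short of loop11595, 20.4% rose at 72 h. At 6 h, 0 of the 5 loops rose and 0 fell by gene ends (median 0.16). With any part of the gene over an anchor, 2 of 8 loops rose at 6 h (median 0.35), where 2.34% of all tested loops did. At 72 h, 3 of the 8 rose (median 0.09). Among receptors and binding partners, 4 of 8 tested loops (at 7 of 16 genes) fell at 72 h, with a median of -0.38, where 16.9% of all tested loops fell. They were at ITGB3 (loop29727, -0.91), the beta chain of the platelet fibrinogen receptor, at the integrin genes ITGA3 (loop29771, -0.59) and ITGB1 (loop20242, -0.56), and at CALR (loop30700, -0.41), which encodes calreticulin. Counting loops with any part of the gene over an anchor, 3 of 23 rose and 6 fell at 72 h, with a median of -0.03. At 6 h, 2 of these 23 rose and 1 fell, where 2.34% of all tested loops rose and 4.07% fell. By gene ends, 0 of the 8 loops rose and 0 fell at 6 h (median -0.18). For platelet alpha-granule cargo, 2 of 4 tested loops (at 2 of 12 genes) fell at 72 h by gene ends (median -0.21). With any part of the gene, 6 of 24 rose and 2 fell at 72 h (median 0.19). Over all tested loops 16.7% rose and 16.9% fell at that time. At 6 h, 1 of the 4 cargo loops fell by gene ends, and 2 of the 24 fell with any part of the gene. No cargo loop rose at 6 h by either rule, beside 2.34% of all tested loops that rose and 4.07% that fell.

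In the authors' deposited table, loop27664, loop27668, loop27669 and loop27670 are classed as gained and loop27671 and loop27672 as lost, with 8 static. That table classes 2.95% of its loops as gained and 1.48% as lost. Its log2 fold change at 72 h, in the authors' deposited table, was 0.67 for loop27668, 1.04 for loop27664 and -0.96 for loop27672. The authors' deposited table gives no fold change for the 4 loops that pass over THBS1.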

How the data were processed

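In situ Hi-C contacts of 12 libraries (K562, 4 biological replicates at 0 h, 6 h and 72 h) were analysed. Per the file headers, the authors deposited raw contact counts per loop in 30 columns, 1 per technical replicate, with log2 fold changes, an adjusted p-value and a class; the shrinkage behind these log2 values is not given in the sources used here. Juicer 1.5.6, DESeq2 and hg38 are named in the submitters' processing notes; the loop caller is not given in the sources used here. Technical replicates were summed. The model over all loops used edgeR 4.0.16 (R 4.3.3; filterByExpr with minimum count 10 and total 15, TMM scaling, quasi-likelihood test, prior count 2, Benjamini-Hochberg adjustment), and the 14 members were read from that fit. The SE is the log2 fold change over the root of the test's F. The fit was tested on simulated data. Counts include the local background of each pixel. A single loop's precision follows its count, and depth was 736929 to 1472197 contacts per library. Gene positions, names and sequences come from RefSeq (GRCh38.p14). All 14 members are named, with the 5 loops most like the loop at THBS1. Refits used DESeq2 1.42.0, RLE or total count scaling, and a filter at a mean count of 20 or none. Others used the replicate number as a block, a term for replicate pair, or each replicate pair alone. No label names a batch, so the pair term does not adjust for a recorded one. Further refits used other replicate sums, a loop length correction (loess span 0.3), another prior count, a threshold of 0.01 and leaving out each library. The members and lists were chosen with earlier results of these data known.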

Additional observations from a re-analysis of the deposited data

Results flagged for a closer look

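Of 28 groups of 4 libraries examined, 6 held a library far from the other 3, where chance gives about 1 in 20 (1.4 groups). At 6 h, replicate 3, the library with the lowest depth, was such a library in 3 loops: 4.25 normalized contacts (3 raw) in loop27661 against 14.5 to 15.9 in the others, 22.6 (16 raw) in loop27666 against 8.82 to 10.3, and 25.5 (18 raw) in loop27673 against 18.6 to 19.3. At 6 h, replicate 2 had 57.9 in loop27665 against 36.8 to 40.2. At 0 h, replicate 4 had 22.7 in loop27663 against 12.3 to 13.8, and replicate 3 had 74.0 in loop27671 against 90.5 to 92.1.

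The change at 72 h differed from the change at 6 h in 5 loops by the direct test between the times. The difference in log2 change was 1.29 for loop27664 (SE 0.15, edgeR adjusted p 3.57e-12), 0.96 for loop27670 (SE 0.13, adjusted p 5.34e-09), 0.97 for loop27669 (SE 0.14, adjusted p 3.65e-08), 0.72 for loop27668 (SE 0.14, adjusted p 4.85e-05) and -0.45 for loop27672 (SE 0.16, adjusted p 0.0392).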

How the results depend on the processing

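At 72 h against 0 h, 6 of the 8 calls held in all 26 refits in which they had an adjusted p (loop27664, loop27668, loop27669, loop27670, loop27671 and loop27672; 1 refit, within replicates 3 and 4, has a single 72 h sample), and loop27662 and loop27667 lost theirs in some. At 72 h against 6 h the 4 rises held in all and the fall of loop27672 did not. The calls at 6 h were 2 in every refit except within replicates 1 and 2 (1), leaving aside the fit within replicates 3 and 4, which is given as values only. For libraries with the same replicate number, the correlations of their deviations from the group means were 0.0146 to 0.124, all positive. Those between unlike numbers were not set beside them, so whether the numbers pair the libraries was not tested. The main fit did not take them as pairs. The replicate block gave 2, 8 and 5 member calls in the 3 comparisons, as without it. Over all loops it gave 1938, 8560 and 5472 calls, against 1546, 8105 and 4945 without it. Loops with THBS1 or FSIP1 at an anchor number 3 by gene ends and 8 by any part of the gene.

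Changes of sign occurred only where neither fit passed the threshold, and their cause was not tested. Within replicates 1 and 2, the 6 h change became 0.015 in loop27663, -0.14 in loop27666 and 0.16 in loop27669, the 72 h change 0.076 in loop27663 and -0.11 in loop27666, and the 72 h against 6 h change 0.062 in loop27663, -0.13 in loop27665, 0.034 in loop27666 and -0.17 in loop27667. Within replicates 3 and 4, the 6 h change became -0.30 in loop27662, -0.10 in loop27665, -0.12 in loop27668 and 0.19 in loop27673, the 72 h change 0.040 in loop27673 and -0.088 in loop27674, and the 72 h against 6 h change 0.47 in loop27661. The length correction gave -0.022 in loop27662 at 6 h, no filter gave -0.015 in loop27668 at 6 h and -0.055 in loop27674 at 72 h, and total count scaling gave 0.022 in loop27673 at 6 h.

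Leaving out 1 library, the 6 h change ranged from -0.12 to 0.22 in loop27662, -0.26 to 0.084 in loop27663, -0.0063 to 0.27 in loop27665, -0.048 to 0.059 in loop27668 and -0.11 to 0.033 in loop27673. The 72 h change ranged from -0.27 to 0.0094 in loop27663, -0.029 to 0.35 in loop27666 and -0.048 to 0.10 in loop27674, and the 72 h against 6 h change from -0.25 to 0.10 in loop27661, -0.18 to 0.10 in loop27663 and -0.33 to 0.21 in loop27666. Depth limits the 4 loops over THBS1, with mean raw counts under 15.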

Other observations

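Just outside the window, loops near RASGRP1, which encodes a diacylglycerol-activated exchange factor for Ras, lie to the left. There loop27659, with an end of RASGRP1 in its anchor at 38560001, rose by 0.52 at 72 h (SE 0.14, edgeR adjusted p 0.00206), and loop27658, with anchors starting at 38470001 and 38680001, rose by 0.52 (adjusted p 0.00784). The other 3 loops on that side did not pass the test: loop27657, also with an end of RASGRP1 (0.30, adjusted p 0.127), loop27656 (0.06, adjusted p 0.794) and loop27660 (0.19, adjusted p 0.282). To the right, 3 loops that share the anchor starting at 40040001 did not pass the test (loop27675 -0.22, loop27676 -0.18 and loop27677 -0.11). Further on, loop27681 and loop27682, with ends of PHGR1 and DISP2 in the anchor starting at 40350001, fell by 0.46 and 0.63 on the log2 scale (adjusted p 0.00051 and 0.002). There loop27680 with an end of PLCB2 fell by 0.36 (adjusted p 0.0164). On the same side, loop27678 with an end of BMF (-0.15, edgeR adjusted p 0.313) did not pass the test. Nor did loop27679 with ends of PAK6 and ANKRD63 (-0.18, adjusted p 0.172). Over all tested loops 16.7% rose and 16.9% fell at 72 h.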
